A study of Mus musculus with 8 samples.

Results

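Retinoic acid synthesis and receptor genes were followed in mesenchymal cells of the embryonic mouse lung after conditional loss of Sin3a, whose protein assembles corepressor complexes with histone deacetylases. The group comprised 10 genes chosen by symbol in the deposited gene table, which has 51912 genes. They are the receptor genes Rara, Rarb, Rarg, Rxra and Rxrb, the synthesis genes Rdh10, Aldh1a1 and Aldh1a2, the retinol transporter gene Stra6 and the retinal reductase gene Dhrs3. Each had 1 line in the table, and all 10 were among the 20315 genes tested. The Sin3a CKO embryos were Tbx4rtta; tetocre; Sin3a F/F and the Control embryos Tbx4rtta; tetocre; Sin3a F/+, with 4 libraries in each group. Both groups thus carried the reverse tetracycline activator under Tbx4 and the tetO-driven Cre, and doxycycline was fed to the dams of both from embryonic day 12. By genotype the comparison is of deletion of both Sin3a alleles with deletion of 1, in mesenchymal cells sorted at embryonic day 16.

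Retinol reaches cells bound to a carrier protein and is taken up through STRA6. It is oxidised to retinal by RDH10 and then to retinoic acid by the ALDH1A enzymes, while DHRS3 reduces retinal to retinol. Retinoic acid binds the RAR receptors, which sit on DNA as heterodimers with RXR receptors, recruit corepressors without ligand and coactivators with it, and in mice act in lung bud formation and in restraint of airway smooth muscle differentiation. Rarb is a target of the receptors as well as one of them.

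The element through which RAR and RXR bind is a pair of half-sites in the same direction, and it is shown here because Rarb, one of the genes that fell, carries one. RefSeq promoters (GRCm38.p6, 250 bases before to 50 after a start) were searched on both strands for 2 half-sites in any mix of AGGTCA, of AGTTCA, of GGGTCA and of GGTTCA, with 1, 2 or 5 bases between them. Of the 10 genes 9 were in the promoter table, and Rdh10 was not matched. Only Rarb of those 9, which have 21 promoter entries, held such a repeat. Elements outside this window, or with other half-sites or spacers, were not searched for. The elements below are printed in the direction of the repeat with 6 bases on each side, and capitals mark the half-sites. The Cyp26a1 and Bco1 elements were the other repeats among the 74 matched genes of the 103 in the pathway lists.
Rarb, 5-base spacer, chr14:16575507-16575535, minus strand: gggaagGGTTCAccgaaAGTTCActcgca
Cyp26a1, 5-base spacer, chr19:37697770-37697798, minus strand: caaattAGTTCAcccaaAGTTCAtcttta
Bco1, 1-base spacer, chr8:117095803-117095827, minus strand: tgtgttAGGTCAaAGGTCAgttccc
The Rarb repeat ends 36 bases before the RefSeq start and runs with the gene, inside an exon of Rarb transcripts that GENCODE M21 starts further upstream. Cyp26a1, which encodes a retinoic acid hydroxylase, carries its repeat 15 bases before the start on the strand opposite to the gene. The Rarb and Cyp26a1 elements are identical at 15 of 17 bases. Of 32851 promoter entries 0.0974% held a repeat with 5 bases between half-sites, 0.268% one with 2 and 0.222% one with 1. A match describes these letters and does not show binding, nor which receptors would bind.

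Totals were 96098322 to 108493347 counts per library. Sin3a itself was at 53.2 to 61.0 CPM, the counts scaled to library size, in Sin3a CKO libraries and at 46.2 to 58.7 CPM in Control libraries. Counts over the whole gene do not check a deletion of some of its exons. All 12 mesenchyme markers examined were detected in every library, and their summed level was 12610.5 to 14179.6 CPM in Sin3a CKO and 17229.7 to 23511 CPM in Control; 5 of the 12 fell and 1 rose. Smooth muscle markers summed to 1713 to 1883 CPM in Sin3a CKO against 2001 to 2953 CPM in Control, and 8 of 10 fell. Pericyte markers summed to 367 to 557 CPM in Sin3a CKO against 678 to 1088 CPM in Control, and 5 of 8 fell. Blood and immune markers were at 1323 to 4221 CPM in Sin3a CKO and 109 to 1046 CPM in Control; 4 of 12 rose, and 4 of the 8 not called were below 0 on the log2 scale. Epithelium markers summed to 601, 403, 1293 and 55.5 CPM in Sin3a CKO 1 to 4, and to 65.4, 69.4, 444 and 55.5 CPM in Control 1 to 4. The high sums were those of Sin3a CKO 1 to 3 and Control 3, the libraries whose identifiers start with s1244. A group difference in epithelium therefore cannot be told apart from that prefix. Of the 12 epithelium markers 0 were called, and 12 were above 0 on the log2 scale. By the test used below, 16.1% of all tested genes fell and 17.3% rose. The part of these markers in the results below was not tested. In bulk RNA, fewer cells of a type and less RNA per cell cannot be told apart.

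Of the 10 genes 4 fell, 1 rose and 5 did not pass in Sin3a CKO mesenchyme by edgeR's quasi-likelihood test, at an adjusted p under 0.05. Rarb, Rxra, Aldh1a1 and Stra6 fell, and Rdh10 rose. Over all tested genes 16.1% fell and 17.3% rose, so that 33.4% were called. The median change of the 10 genes was -0.32 on the log2 scale, Sin3a CKO relative to Control, against 0.04 over all tested genes. It was -0.18 with length and GC trends removed, -0.23 with prefix as a block and -0.42 with upper-quartile scaling. The groups did not overlap for 5 of the 10 genes and for 36.1% of all tested genes. Of all calls 51.8% were rises with TMM scaling and 38.2% with upper-quartile scaling, which moved the median of all genes to -0.06.

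**Figure D1:**
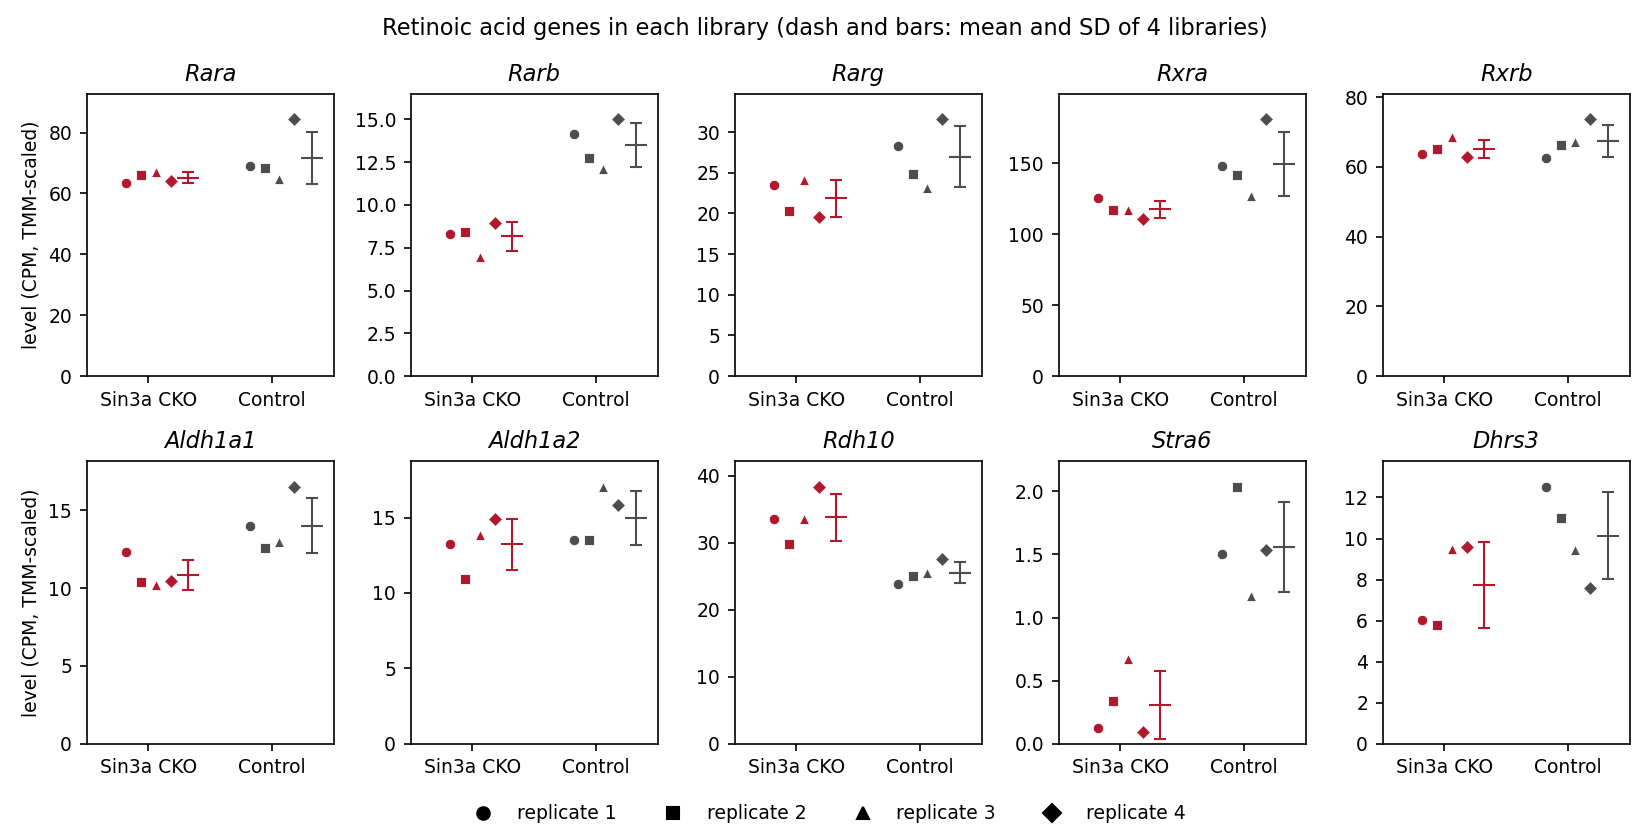
Level of each of the 10 genes in CPM on TMM-scaled library sizes, with 1 point per library (marker shape gives the replicate number) and the mean and SD of 4 libraries beside them. Sin3a CKO is on the left of each panel and Control on the right. The groups are apart for Rarb, Rxra, Aldh1a1, Rdh10 and Stra6, and Control 4 is the highest library for all 5 receptor genes.

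Among the receptor genes, Rarb had the largest fall. Rarb (ENSMUSG00000017491, chromosome 14, 16430839 to 16819156, GRCm38) had 8.32, 8.43, 6.96 and 8.92 CPM in Sin3a CKO 1 to 4, against 14.1, 12.7, 12.1 and 15.0 CPM in Control 1 to 4. Every Sin3a CKO library was below every Control library. The log2 fold change was -0.73 ± 0.12 (SE, 4 against 4 libraries, adjusted p = 0.00151), with means of 8.16 ± 0.838 CPM in Sin3a CKO and 13.5 ± 1.31 CPM in Control (SD). The direction was the same within identifier prefixes, which group libraries by the start of their label, at -0.59 within s686 (1 Sin3a CKO against 2 Control) and -0.62 within s1244 (3 against 1). Its direction and call held under all 18 alternatives, with changes from -0.83 to -0.60. Rarb overlaps Top2b on the other strand, and 1433 bases of the 3108-base longest Rarb transcript are also Top2b sequence. Top2b, which encodes a DNA topoisomerase, was far higher, at 354.8 ± 52.1 CPM in Sin3a CKO and 348.7 ± 40.0 CPM in Control, and was not called. The library kit does not mark strand, so reads of Rarb and Top2b cannot be told apart in the shared bases. The level of Rarb, its place in the order per kb and its share of the RAR genes are uncertain to that extent. Its change and call rest on the same counts, and the part of shared reads in them was not tested.

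Rara and Rarg, which encode the other RAR receptors, did not pass. Rara (ENSMUSG00000037992, chromosome 11, 98927818 to 98974942) had 63.3, 66.2, 67.1 and 64.2 CPM in Sin3a CKO 1 to 4, against 69.0, 68.4, 64.8 and 84.4 CPM in Control 1 to 4. Rarg (ENSMUSG00000001288, chromosome 15, 102234938 to 102257517) had 23.4, 20.3, 24.1 and 19.6 CPM in Sin3a CKO 1 to 4, against 28.3, 24.9, 23.1 and 31.6 CPM in Control 1 to 4. The groups overlapped for both genes, since Control 3 was below the highest Sin3a CKO library. Their changes were -0.14 ± 0.09 for Rara (SE, adjusted p = 0.281) and -0.30 ± 0.12 for Rarg (adjusted p = 0.0784). Within s686 and s1244 Rara was at -0.10 and 0.01, and Rarg at -0.44 and -0.03. Rarg lies near the threshold: it was called as lower with DESeq2 (-0.33, adjusted p = 0.0232), upper-quartile scaling (-0.40, adjusted p = 0.0134), RLE scaling (adjusted p = 0.049), a mean of at least 10 CPM, no filter, and without Control 3 or Sin3a CKO 3. Rara was called as lower with upper-quartile scaling (-0.24, adjusted p = 0.014) and a mean of at least 10 CPM (adjusted p = 0.0322), and was at 0.08 with length and GC trends removed.

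Rxra and Rxrb encode the heterodimer partners. Rxra (ENSMUSG00000015846, chromosome 2, 27676440 to 27762957) had 125.6, 116.9, 116.6 and 110.6 CPM in Sin3a CKO 1 to 4, against 148.2, 141.4, 127.2 and 180.9 CPM in Control 1 to 4. The groups did not overlap, but the lowest Control library, Control 3, lay just above Sin3a CKO 1. Rxra fell by 0.35 ± 0.11 on the log2 scale (SE, adjusted p = 0.0286), and the change was -0.39 within s686 and -0.09 within s1244. The gene was no longer called with prefix as a block (-0.23, adjusted p = 0.0669), with length and GC trends removed (-0.18, adjusted p = 0.129), without Control 1 (adjusted p = 0.0714) and without Sin3a CKO 2 (adjusted p = 0.0715). Rxrb (ENSMUSG00000039656, chromosome 17, 34031812 to 34038399) had 63.8, 65.1, 68.6 and 62.9 CPM in Sin3a CKO 1 to 4, against 62.6, 66.2, 67.2 and 73.7 CPM in Control 1 to 4. The groups overlapped across most of their range, with a change of -0.05 ± 0.07 (SE, adjusted p = 0.652). With length and GC trends removed Rxrb was instead called as higher (0.22, adjusted p = 0.0241).

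Stra6 had the largest change of the 10 genes and the lowest level. Stra6 (ENSMUSG00000032327, chromosome 9, 58063788 to 58153996) had 0.122, 0.339, 0.674 and 0.0944 CPM in Sin3a CKO 1 to 4, against 1.5, 2.04, 1.17 and 1.54 CPM in Control 1 to 4. These are 13, 33, 63 and 9 counts in Sin3a CKO and 157, 207, 126 and 152 counts in Control, so counting error adds to the spread. The groups did not overlap, and the highest Sin3a CKO library was Sin3a CKO 3. Stra6 fell by 2.34 ± 0.58 on the log2 scale (SE, adjusted p = 0.011), to 0.197 of the Control level. The change was -4.09 within s686 and -1.60 within s1244, and the call held in all 17 alternatives in which the gene was tested, from -3.15 to -2.07. Without Sin3a CKO 3 it was -3.11. Sin3a CKO 3 also had the highest summed level of epithelium markers (1293 CPM) and of mesothelium markers (215 CPM, against 149.6 to 168 CPM in the other Sin3a CKO libraries). Sin3a CKO 1 came next among Sin3a CKO libraries for both sums (601 and 168 CPM), with Stra6 at 0.122 CPM. Among Control libraries, Control 3 had the highest of both sums (444 and 198 CPM) and the lowest Stra6 (1.17 CPM). All 12 mesothelium markers were detected in every library, with summed levels of 149.6 to 215 CPM in Sin3a CKO and 164 to 198 CPM in Control, and 3 of them fell. The part of these cells in the Stra6 values was not tested.

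Rdh10, the retinol dehydrogenase of the first oxidation step, was the member that rose. Rdh10 (ENSMUSG00000025921, chromosome 1, 16105774 to 16133734) had 33.5, 29.8, 33.6 and 38.4 CPM in Sin3a CKO 1 to 4, against 23.9, 25.1, 25.5 and 27.6 CPM in Control 1 to 4. All Sin3a CKO libraries were above all Control libraries. The change was 0.41 ± 0.09 on the log2 scale (SE, adjusted p = 0.00756), a level 1.33 times that of Control, with 0.65 within s686 and 0.34 within s1244. It was positive under all 18 alternatives, and the call ended without a filter (0.31, adjusted p = 0.0563). Dhrs3, which works in the reverse direction, did not pass. Dhrs3 (ENSMUSG00000066026, chromosome 4, 144892827 to 144928209) had 6.03, 5.80, 9.49 and 9.57 CPM in Sin3a CKO 1 to 4, against 12.5, 11.02, 9.42 and 7.57 CPM in Control 1 to 4. The groups overlapped and both were wide, with a change of -0.39 ± 0.22 (SE, adjusted p = 0.212). Leaving out Control 4 and Sin3a CKO 3 together, a choice made after seeing the data, gave -0.69 (adjusted p = 0.045).

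Aldh1a1 and Aldh1a2 encode the retinal dehydrogenases, ALDH1A2 being the main source of retinoic acid in the mouse embryo. Aldh1a1 (ENSMUSG00000053279, chromosome 19, 20492715 to 20643465) had 12.3, 10.4, 10.2 and 10.4 CPM in Sin3a CKO 1 to 4, against 14.0, 12.6, 13.0 and 16.5 CPM in Control 1 to 4. Sin3a CKO 1 came close to Control 2, and the groups did not overlap. Aldh1a1 fell by 0.37 ± 0.12 on the log2 scale (SE, adjusted p = 0.0397), with -0.35 within s686 and -0.24 within s1244. That call was the least stable of the 5 and ended under 7 alternatives: either block, length and GC trends removed, the omission of Control 4 and Sin3a CKO 3 together, and the omission of Control 1, Control 3 or Sin3a CKO 2 (adjusted p from 0.0522 to 0.109 over these). Aldh1a2 (ENSMUSG00000013584, chromosome 9, 71215789 to 71296243) had 13.2, 10.9, 13.9 and 14.9 CPM in Sin3a CKO 1 to 4, against 13.5, 13.5, 17.0 and 15.8 CPM in Control 1 to 4. The groups overlapped, the change was -0.18 ± 0.13 (SE, adjusted p = 0.342), and its sign differed between prefixes, at 0.14 within s686 and -0.43 within s1244.

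**Figure D2:**
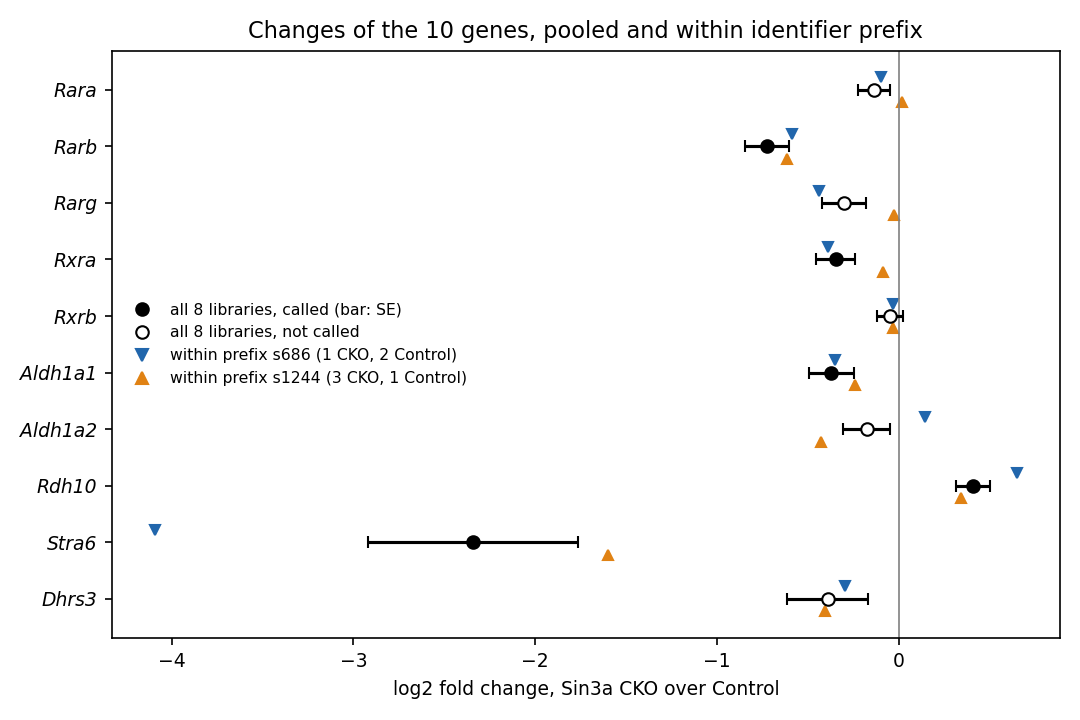
Log2 fold change of each of the 10 genes, Sin3a CKO over Control, from all 8 libraries (circles with SE bars, filled where called), with ratios of means within identifier prefix s686 (1 Sin3a CKO, 2 Control) and s1244 (3 Sin3a CKO, 1 Control) as triangles without a test. Rarb, Stra6 and Rdh10 keep their side of 0 well away from it within both prefixes. Aldh1a1 (-0.35 within s686 and -0.24 within s1244) and Dhrs3 (-0.30 and -0.41), which was not called, also keep their side. Rxra and Rarg lie close to 0 within s1244 and Rxrb within both, while Aldh1a2 and Rara change side.

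Levels were set side by side per length, as CPM per kb of annotated exon. Rxra was the highest of the 10 genes, at 21.5 ± 1.13 CPM per kb in Sin3a CKO and 27.4 ± 4.16 in Control (SD, n = 4 each). Rxrb followed with 16.4 ± 0.626 in Sin3a CKO and 17.0 ± 1.16 in Control, and Rara with 14.9 ± 0.401 in Sin3a CKO and 16.4 ± 1.99 in Control; in Control these neighbours differ by less than their spread. Rdh10, Aldh1a2 and Rarg came next, at 8.13 ± 0.845, 5.85 ± 0.745 and 5.13 ± 0.529 CPM per kb in Sin3a CKO and 6.13 ± 0.371, 6.61 ± 0.780 and 6.33 ± 0.883 in Control. In Control those 3 were within their spread of one another, whereas in Sin3a CKO Rdh10 was above both Aldh1a2 and Rarg by more than either SD. Dhrs3, Aldh1a1 and Rarb were lower, at 2.64 ± 0.714, 2.19 ± 0.199 and 1.55 ± 0.159 CPM per kb in Sin3a CKO and 3.46 ± 0.728, 2.84 ± 0.359 and 2.56 ± 0.249 in Control. Stra6 was at 0.0527 ± 0.0459 CPM per kb in Sin3a CKO and 0.268 ± 0.0615 in Control, and over all libraries stood at percentile 19.4 of the tested genes on this scale. On this scale Rara held most of the RAR level in this mesenchyme, and Rxra most of the level of Rxra and Rxrb. The scale uses the length of all annotated exons, not of the isoforms expressed, which were not examined.

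Ratios within a library do not depend on how libraries are scaled, and are given as a description with no test. Rarb made up 7.32%, 7.44%, 5.92% and 8.07% of the summed level per kb of the 3 RAR genes in Sin3a CKO 1 to 4, against 10.7%, 10.1%, 10.2% and 9.63% in Control 1 to 4. The groups were apart, and the share of Rara was higher in every Sin3a CKO library, at 67.2% to 70.4% in Sin3a CKO and 62.9% to 65.8% in Control. Rarg held 23.7% ± 1.96 in Sin3a CKO and 25.0% ± 1.06 in Control (SD, n = 4 each), with overlap. Rxra made up 58.9%, 56.6%, 55.3% and 56.1% of Rxra and Rxrb in Sin3a CKO 1 to 4, against 63.3%, 60.8%, 57.9% and 64.1% in Control 1 to 4. Here Sin3a CKO 1 was above Control 3. The summed RXR level was 1.75 ± 0.0409 times the summed RAR level in Sin3a CKO and 1.75 ± 0.0350 times in Control. Both sums were lower in Sin3a CKO, by amounts that left their ratio within the spread between libraries. Rdh10 over Dhrs3, the genes for opposite reactions, was 3.91, 3.61, 2.49 and 2.82 in Sin3a CKO 1 to 4, against 1.34, 1.60, 1.90 and 2.57 in Control 1 to 4. Control 4 lay above Sin3a CKO 3, so the groups overlapped by 1 library on each side.

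**Figure D3:**
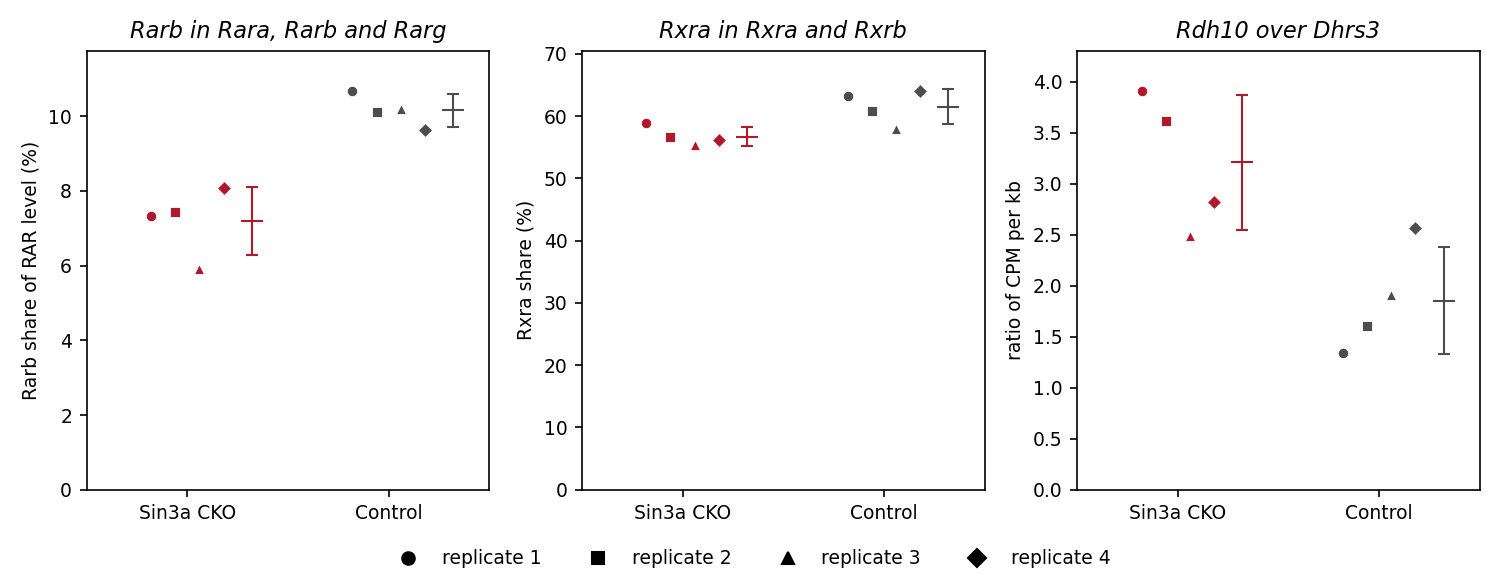
Ratios within each library from CPM per kb: the share of Rarb in the 3 RAR genes, the share of Rxra in Rxra and Rxrb, and Rdh10 over Dhrs3. Points are libraries, with the mean and SD of 4 beside them; the Rarb share is 5.92% to 8.07% in Sin3a CKO and 9.63% to 10.7% in Control, and the other ratios overlap.

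The further genes of the pathway were taken by list, and each count stands against 16.1% of all tested genes that fell and 17.3% that rose. Of 10 tested genes of retinoid binding, storage and entry 3 fell, 1 rose and 6 did not pass, with a list median of -0.21. Rbp4 encodes the carrier of retinol in plasma, the ligand of STRA6. It had 2.86, 2.17, 3.94 and 1.73 CPM in Sin3a CKO 1 to 4, against 14.1, 15.4, 12.1 and 16.8 CPM in Control 1 to 4. Rbp4 fell in all 4 Sin3a CKO libraries without overlap, by 2.45 ± 0.25 on the log2 scale (SE, adjusted p = 0.000107). Lpl, the lipase through which retinyl esters of lipoproteins can enter cells, was at -0.90 ± 0.10 (adjusted p = 0.000178). Crabp2, which carries retinoic acid to the receptors, was at -1.45 ± 0.44 (adjusted p = 0.0288) at under 2 CPM. The groups overlapped for Crabp2, and its call ended under 7 of 17 alternatives. Lrat, the enzyme that esterifies retinol for storage, rose by 0.96 ± 0.28 (adjusted p = 0.0264), with 2.78, 2.94, 2.41 and 5.57 CPM in Sin3a CKO 1 to 4 and 1.57, 1.59, 1.79 and 2.10 CPM in Control 1 to 4. Without Sin3a CKO 4 the change was 0.59 (adjusted p = 0.0522), and the call also ended without Control 1, 2 or 3 (adjusted p = 0.0759, 0.0749 and 0.0561).

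Of 16 tested genes of retinol and retinal interconversion 7 fell, 1 rose and 8 did not pass, with a median of -0.45. Dhrs4, a retinal reductase gene, had 7.73, 8.02, 12.8 and 5.75 CPM in Sin3a CKO 1 to 4, against 34.3, 34.6, 30.6 and 31.7 CPM in Control 1 to 4. The groups were far apart, at -1.93 ± 0.21 on the log2 scale (SE, adjusted p = 0.000163). Bco1, which encodes the enzyme that cleaves beta-carotene to retinal and carries the 1-base repeat printed above, was at -2.22 ± 0.37 (adjusted p = 0.00143), from 14 to 47 counts in Sin3a CKO and 114 to 170 counts in Control. Akr1b8, an aldo-keto reductase gene, was at -1.47 ± 0.23 (adjusted p = 0.000887); its longest transcript is 87.4% identical to Akr1b10 over 746 bases, so the split of their reads is uncertain. The riser was Adh5, a broadly expressed alcohol dehydrogenase gene chosen after its value was seen, at 0.29 ± 0.06.

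Paralogs outside the 10 genes moved too. Rxrg, the third RXR gene, was near the limit of detection with 3, 6, 7 and 6 counts in Sin3a CKO 1 to 4 and 25, 38, 20 and 24 counts in Control 1 to 4, and its change was -2.17 ± 0.57 (SE, adjusted p = 0.0151). Aldh1a3, the third retinal dehydrogenase gene, was at -0.95 ± 0.32 (adjusted p = 0.0433), and Aldh1a7, a rodent relative of Aldh1a1, at 0.46 ± 0.16 (adjusted p = 0.0455). The Rxrg call ended with prefix as a block (adjusted p = 0.0573), without a filter (0.0593) and without Control 2 (0.0764). The Aldh1a3 call ended under 10 of 17 alternatives and the Aldh1a7 call under 13 of 18, and the groups overlapped for Aldh1a7. Aldh1a7 is 88.9% identical to Aldh1a1 over 2069 bases and the pair moved in opposite directions, so the split of their counts is uncertain.

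Of the 3 genes of retinoic acid degradation, Cyp26a1 and Cyp26b1 were tested and neither was called. Cyp26a1, with its 5-base repeat, had 29, 9, 14 and 10 counts in Sin3a CKO 1 to 4 and 53, 19, 7 and 0 counts in Control 1 to 4, a change of -0.29 ± 1.04 (SE, adjusted p = 0.874) with a wide spread between Control libraries. Cyp26b1 was at 1.02 ± 0.173 CPM in Sin3a CKO and 1.03 ± 0.243 CPM in Control. DESeq2 and limma-voom called 0 of these 2 as well, and 0 had an unadjusted p under 0.05. Of 9 coregulator genes, among them the corepressor gene Ncor1 and the coactivator genes Ncoa1 to Ncoa3, edgeR's quasi-likelihood test called 0, with changes from -0.24 to 0.10. At an unadjusted p under 0.05 the count was 1, and DESeq2 called 2 as lower and limma-voom 0.

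Genes known to respond to retinoic acid moved in both directions. Of 27 tested 6 rose, 6 fell and 15 did not pass, with a median of -0.04. Plat, the tissue plasminogen activator gene, had 25.2, 18.8, 25.1 and 28.4 CPM in Sin3a CKO 1 to 4, against 54.2, 49.6, 49.1 and 63.7 CPM in Control 1 to 4, a change of -1.15 ± 0.13 (SE, adjusted p = 0.000205). Rarres2, which encodes the chemoattractant chemerin, was at -2.06 ± 0.36 (adjusted p = 0.00271), with 20.2 ± 10.96 CPM in Sin3a CKO and 84.2 ± 7.06 CPM in Control. Rarres2 shares 783 bases of its longest transcript with Lrrc61 on the other strand, which fell as well. Hoxa4, Hoxb4 and Hoxb6, which encode homeobox factors of body axis patterning, were at 0.45 ± 0.11, 0.56 ± 0.12 and 0.48 ± 0.10; these 3 genes were picked with their values in view. The list mixes genes with many inputs, and its median does not measure retinoic acid signalling, which was not tested.

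**Figure D4:**
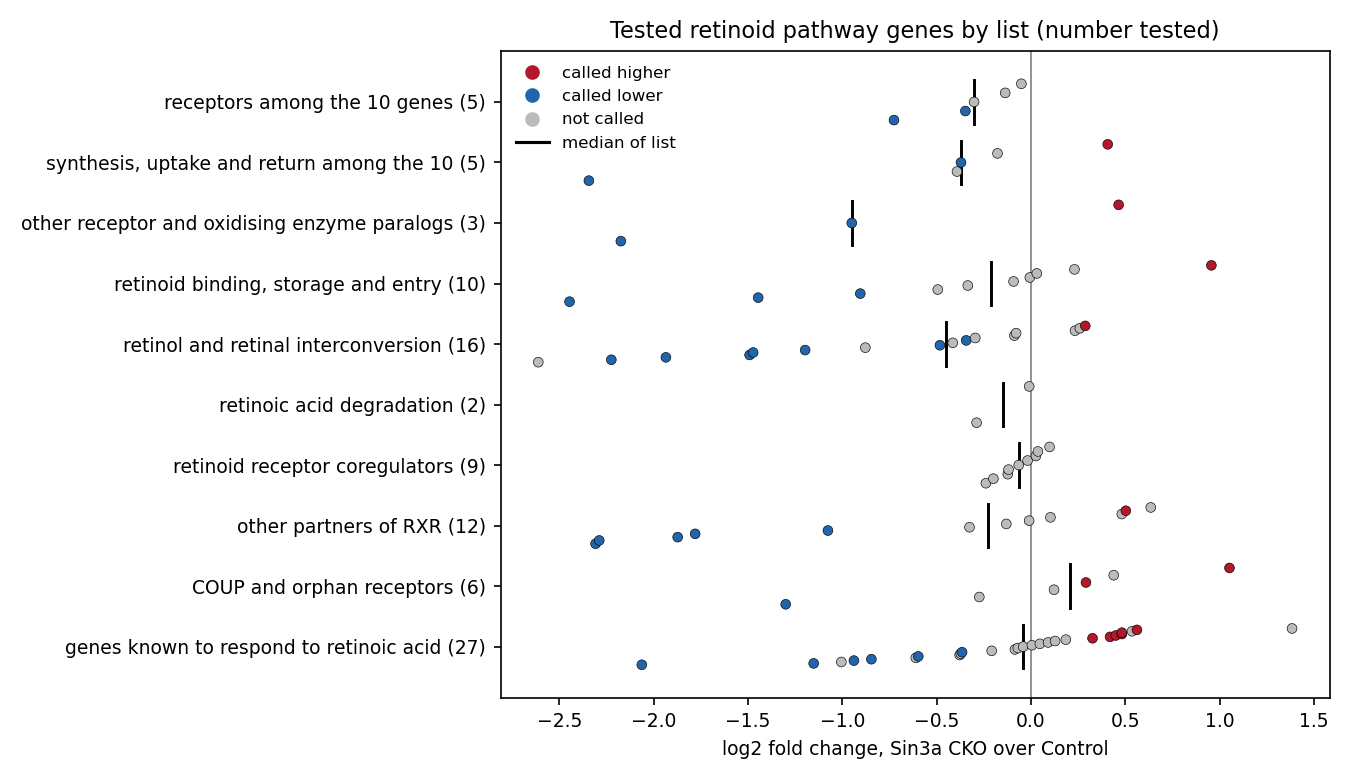
Log2 fold change, Sin3a CKO over Control, of every tested gene of the retinoid pathway lists, 1 point per gene, with the median of each list as a bar and the number tested in brackets. Of the tested genes 3 of 10 fell and 1 rose among binding genes, 7 of 16 and 1 among interconversion genes and 5 of 12 and 1 among RXR partners, where 16.1% of all tested genes fell and 17.3% rose; no coregulator or degradation gene is called, and the retinoic acid responsive genes have 6 called on each side.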

How the data were processed

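RNA of sorted mesenchymal cells was sequenced by the submitters; per the labels' protocols, TRIzol was used for extraction and SMARTer v4 with Nextera XT for libraries, kits that carry no molecular identifiers. The submitters' processing notes name the build mm10 and the tools RSEM 1.3.0, STAR 2.5.3a and edgeR without their roles. The authors deposited RSEM expected counts per gene, 100% of them whole numbers, so rounding changed nothing. From these, low genes were removed with filterByExpr (minimum count 10), and libraries were scaled by TMM in edgeR 4.0.16 (R 4.3.3). Groups were compared with its 2-sided quasi-likelihood test with group as the only term, adjusted by Benjamini-Hochberg over all 20315 tested genes. Standard errors were taken as the size of the log2 change over the root of F. Totals per library are given with the results. Coordinates, exon lengths and overlaps come from GENCODE M21 (GRCm38), and promoters from RefSeq.

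Group and replicate number come from the sample titles. The replicates are labelled biological. By the start of their identifiers, libraries fall into s686 (Sin3a CKO 4, Control 1 and 2), s1244 (Sin3a CKO 1 to 3, Control 3) and s722 (Control 4). Litters, and the meaning of these prefixes, were not stated in the labels. Named genes were all 10, and of each other list the 3 called genes with the smallest p, or every called gene where a list had 5 or fewer; 1 gene that this rule names is not reported here. The genes and lists were chosen with earlier results of these data known. Alternatives were RLE and upper-quartile scaling, other filters, DESeq2 1.42.0, limma-voom (limma 3.58.1), blocks for replicate number or prefix, and each library left out. Length and GC trend removal, and the omission of Control 4 and Sin3a CKO 3 together, were added after seeing the data.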

Additional observations from a re-analysis of the deposited data

Results flagged for a closer look

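In 80 groups of 4 values, from the named genes and the ratios, 4 had a library standing apart, by its gap to the nearest other value relative to the range of the group (Dixon's criterion). Chance gives about 1 in 20. Aldh1a1 was at 12.3 CPM in Sin3a CKO 1, with the other Sin3a CKO libraries at 10.2 to 10.4 CPM. Lrat was at 5.57 CPM in Sin3a CKO 4, with the others at 2.41 to 2.94 CPM. Nr6a1 was at 2.24 CPM in Sin3a CKO 1, with the others at 3.93 to 4.13 CPM. The share of Rara in the RAR genes was 62.9% in Control 1, with the other Control libraries at 65.3% to 65.8%.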

How the results depend on the processing

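Of the 10 genes 4 were called lower and 1 higher, with 3274 and 3518 of all genes. Without a filter 40662 genes were tested. Then 0 of the 10 genes were called higher and 5 lower, beside 2233 (5.49%) and 3823 (9.4%) of all tested genes. With the filter these shares of all tested genes were 17.3% and 16.1%. With a block for prefix, which also takes Control 4 out of the comparison, 2 were called lower, beside 16.3% of all tested genes. With length and GC trends removed 2 were lower and 2 higher, beside 14.9% and 19.3% of all tested genes. The log2 fold change of Rara was then 0.0787 and that of Rxrb 0.22. Leaving out 1 library gave 2 to 5 of the 10 genes lower and 1 higher. Of all tested genes 11.9% to 17.4% were then lower and 12.6% to 15.3% higher. The cause of these moves was not tested. Without Control 4 and Sin3a CKO 3 the counts were 4 lower and 1 higher, beside 17.7% and 16.1% of all tested genes. Of 178 values of the 10 genes under alternatives 154 kept direction and side of the threshold and 12 lost a call. A further 10 gained a call with the same sign, and 2 changed sign. Of the sign changes, that of Rxrb was also a new call, as higher. Of 333 values of the other named genes 277 kept both and 56 lost a call; none changed sign. A mean of at least 10 CPM removed Stra6 and Dhrs3. Whether replicate numbers pair the libraries was not settled: deviations of same-numbered libraries correlated at -0.27, 0.28, -0.10 and 0.27. The best-matching Sin3a CKO library had the same number for Control 2 and Control 4, but not for Control 1 and Control 3. The replicate block gave 3560 genes higher and 3222 lower (17.5% and 15.9% of those tested), with 1 and 3 among the 10. Depth limits Stra6, Rxrg, Bco1 and Cyp26a1.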

Other observations

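RXR also pairs with receptors other than RAR. Of 12 tested genes of such partners 5 fell, 1 rose and 6 did not pass, with a median of -0.23 on the log2 scale. These counts stand against 16.1% of all tested genes that fell and 17.3% that rose. Pparg, the fat cell regulator also used by lipofibroblasts, had 3.01, 3.01, 2.80 and 2.96 CPM in Sin3a CKO 1 to 4, against 6.54, 5.12, 7.15 and 6.02 CPM in Control 1 to 4, a change of -1.08 ± 0.16 (SE, adjusted p = 0.000646). The liver X receptor genes, whose proteins bind oxysterols, went opposite ways. Nr1h2 rose by 0.50 ± 0.08 (adjusted p = 0.00087), with 105.9 ± 7.29 CPM in Sin3a CKO and 74.7 ± 4.73 CPM in Control (SD, n = 4 each). Nr1h3 fell by 1.78 ± 0.27 (named after seeing it; adjusted p = 0.00102), with 11.5 ± 4.20 CPM in Sin3a CKO and 39.6 ± 3.13 CPM in Control. Nr4a2, an immediate early orphan receptor gene, fell by 1.87 ± 0.24 (adjusted p = 0.000393).

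Of 6 orphan receptor genes whose proteins can bind the same elements as RAR, 1 fell, 2 rose and 3 did not pass. Of all tested genes 16.1% fell and 17.3% rose. Nr2c1, which encodes the orphan receptor TR2, had 10.5, 10.8, 11.1 and 8.20 CPM in Sin3a CKO 1 to 4, against 25.2, 24.3, 24.9 and 25.8 CPM in Control 1 to 4. The groups were far apart, at -1.30 ± 0.11 (SE, adjusted p = 5.45e-05), and -1.59 within s686 and -1.20 within s1244. The paralog Nr2c2, named for comparison after seeing the data, had a change of 0.12 ± 0.14 (adjusted p = 0.584). Nr6a1, the germ cell nuclear factor gene, rose by 1.05 ± 0.31 (adjusted p = 0.0241) and Nr2f2, which encodes COUP-TFII, by 0.29 ± 0.10 (adjusted p = 0.0436). Those calls ended under 9 of 17 and 10 of 18 alternatives, and the groups overlapped for both genes.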
